A study of Mus musculus with 16 samples.

Results

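The transcripts described here are the listed genes of mouse duodenal epithelium that do not encode a protein in the usual sense: long non-coding RNAs, pseudogenes, and a few ribosomal, transfer, small nuclear and micro RNA features. They are the rows of the deposited table whose gene biotype is neither protein coding nor an immunoglobulin or T cell receptor segment, without the rows of a short interval of chromosome 17. The rule gave 159 of the 2438 listed genes, with 26 immunoglobulin and T cell receptor rows and 6 chromosome 17 rows left out. The table lists only genes that passed the authors' own test (adjusted p under 0.05), 14.8% of the 16488 genes over which the authors adjusted. Every transcript described here was therefore already called between the groups, and neither that call nor its direction is independent evidence of a difference.

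The study compared mice carrying floxed Ephb4 alleles without deletion (fl/fl, here flox, n = 9) with mice lacking Ephb4 in intestinal epithelial cells (Ephb4-IKO, here KO, n = 7). EphB4 is a receptor tyrosine kinase that binds ephrin-B2. Both groups were 8 weeks old when a high-fat diet began and were fed it for 19 weeks, so all libraries share the diet, and nothing here compares it with another feed. Which recombinase line deletes Ephb4 is not stated in the labels. Replicate libraries are taken as separate mice. RNA was selected with poly-T beads before library construction.

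Processed pseudogenes are intronless copies of messenger RNAs that were reverse transcribed into the genome, and most have no promoter of their own. A read from a coding gene can align as well, or almost as well, to such a copy, so its count depends on how similar the copy and its source are and on how reads with several matches were counted, which no source used here states. Long non-coding RNAs are transcribed and often spliced and polyadenylated like messenger RNAs, and are often low in abundance; some host small RNAs in their introns. Ribosomal RNA, transfer RNA, small nuclear RNA and micro RNA have no long poly(A) tail in their mature form, so a poly-A selected library measures them only in part.

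By biotype the 159 transcripts were 45 processed pseudogenes, 27 lincRNAs (long intergenic non-coding RNAs), 19 TEC loci (awaiting experimental review), 16 antisense RNAs, 15 processed transcripts and 10 transcribed processed pseudogenes. A further 8 were unprocessed pseudogenes, which arise by gene duplication, and 6 were transcribed unprocessed pseudogenes. The polymorphic pseudogene, transcribed unitary pseudogene, Mt_tRNA, miRNA and bidirectional promoter lncRNA biotypes held 2 each. The rRNA, snRNA and sense overlapping biotypes held 1 each. Grouped broadly, 80 were long non-coding, 73 pseudogenes and 6 other RNAs. The biotypes are those of the deposited table, and 157 of the 159 were the same in GENCODE M21, the annotation used here for neighbours and sequences.

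Several results turn on sequence, so the transcripts concerned are shown first, 5′ to 3′. AC154457.3 is printed because it had the largest rise in the table's non-coding rows and is a near copy of a coding gene. Its 570 bases, on chromosome 17 at 65438128 to 65438697 (GRCm38, minus strand), all align to the coding sequence of Mrps10, a mitochondrial ribosomal protein gene, with 9 differences. Bases 1 to 300 are shown, with capitals at the 5 that differ from Mrps10.
AC154457.3: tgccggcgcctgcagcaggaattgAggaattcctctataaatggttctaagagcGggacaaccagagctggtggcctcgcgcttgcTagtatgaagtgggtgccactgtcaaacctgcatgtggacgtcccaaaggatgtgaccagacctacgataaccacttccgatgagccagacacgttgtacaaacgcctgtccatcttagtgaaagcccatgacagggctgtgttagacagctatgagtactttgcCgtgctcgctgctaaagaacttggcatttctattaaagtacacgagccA
The 57 bases of Gm23935, on chromosome 16 at 11144125 to 11144181 (plus strand), are printed because the same 57 bases also occur, on the same strand, in 2 other annotated miRNA models, Gm24245 and Gm24270, neither of them listed.
Gm23935: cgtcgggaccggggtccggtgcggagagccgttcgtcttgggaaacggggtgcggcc
Mir8116 is printed as the only one of the 159 with a mature micro RNA sequence in RefSeq. Its mature form has the seed, bases 2 to 8, in capitals, and its hairpin has the mature stretch in capitals.
Mir8116 mature: aAGGAUCCggggcuaguuggc
Mir8116 hairpin: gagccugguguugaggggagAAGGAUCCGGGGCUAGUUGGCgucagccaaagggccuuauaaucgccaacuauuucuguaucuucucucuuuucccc
The mitochondrial transfer RNAs for tyrosine (mt-Ty) and glycine (mt-Tg) are printed because they are the only mitochondrial features among the 159.
mt-Ty: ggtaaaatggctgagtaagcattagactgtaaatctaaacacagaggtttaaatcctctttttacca
mt-Tg: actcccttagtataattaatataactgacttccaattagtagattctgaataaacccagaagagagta
The GENCODE M21 transcripts (GRCm38) gave AC154457.3, Gm23935 and both transfer RNAs, and RefSeq (GRCm38.p6) gave Mir8116.

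Values are the deposited normalised counts, that is reads divided by a size factor per library (0.878 to 1.38), and are not divided by gene length, so they compare libraries and not genes. The listed genes held 3592468 to 5316273 reads per library; the total depth of each library is unknown. Ephb4 itself was 210.5 ± 94.4 normalised counts (SD, n = 9) in flox and 36.6 ± 21.7 (SD, n = 7) in KO, without overlap (exact permutation test, two-sided, p = 8.741e-05, the smallest that 11440 splits can give). Several marker sums differed between the groups, but they hold only listed genes, which the authors had already called. Their differences are therefore not independent evidence of cell composition. Summed exocrine pancreas markers, 14 of 15 listed, ranged from 315 to 130062 in flox and from 281 to 1526 in KO, and 5 flox libraries (4, 6, 7, 9 and 10) exceeded 2000. Summed markers of T, B and mast cells, stroma and endothelium, 11 of 54 listed and all higher in KO, ranged from 349 to 818 in flox and from 484 to 2200 in KO. Cd3e, Mzb1, Mcpt1, Dcn and Pecam1 are listed, while Cd79a, Col1a1 and Cdh5 are not. Proliferation markers, 7 of 10 listed, summed to 673 to 2114 in flox and 1761 to 3651 in KO. The epithelial markers Vil1, Cldn3 and Krt20 were strongly expressed in all libraries and lower in KO. In bulk tissue, fewer cells of a type and less RNA per cell cannot be told apart.

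Long non-coding RNAs were mostly listed as higher in KO and pseudogenes were listed in both directions. In the authors' deposited table, 108 of the 159 were higher and 51 lower, where 6.97% of the 16488 genes were called higher and 7.81% lower. Of these, 67 of the 80 long non-coding RNAs were higher and 13 lower, with a median log2 fold change (KO over flox) of 0.71. The 73 pseudogenes were 39 higher and 34 lower, with a median of 0.46, and the 6 other RNAs were 2 higher and 4 lower. Uncalled differences are not listed, so the pseudogene median shows mainly which direction held more transcripts. For comparison, the table's 2247 protein-coding genes were 1014 higher and 1233 lower, with a median of -0.25. By biotype, 17 of 19 TEC loci, 13 of 15 processed transcripts, 22 of 27 lincRNAs and 12 of 16 antisense RNAs were higher. Processed pseudogenes were almost evenly divided, 23 higher and 22 lower. A change of at least 2-fold was listed for 43 of the 159 upward and 17 downward, where 15.3% of all listed genes were at least 2-fold higher and 2.67% at least 2-fold lower. These shares are not matched for read number. With a mean normalised count under 50, 41 of 89 were at least 2-fold higher, beside 237 of 374 protein-coding genes. At least 2-fold lower were 12 of these 89, beside 15 of the 374. The plot of fold changes by biotype shows each transcript.

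**Figure D1:**
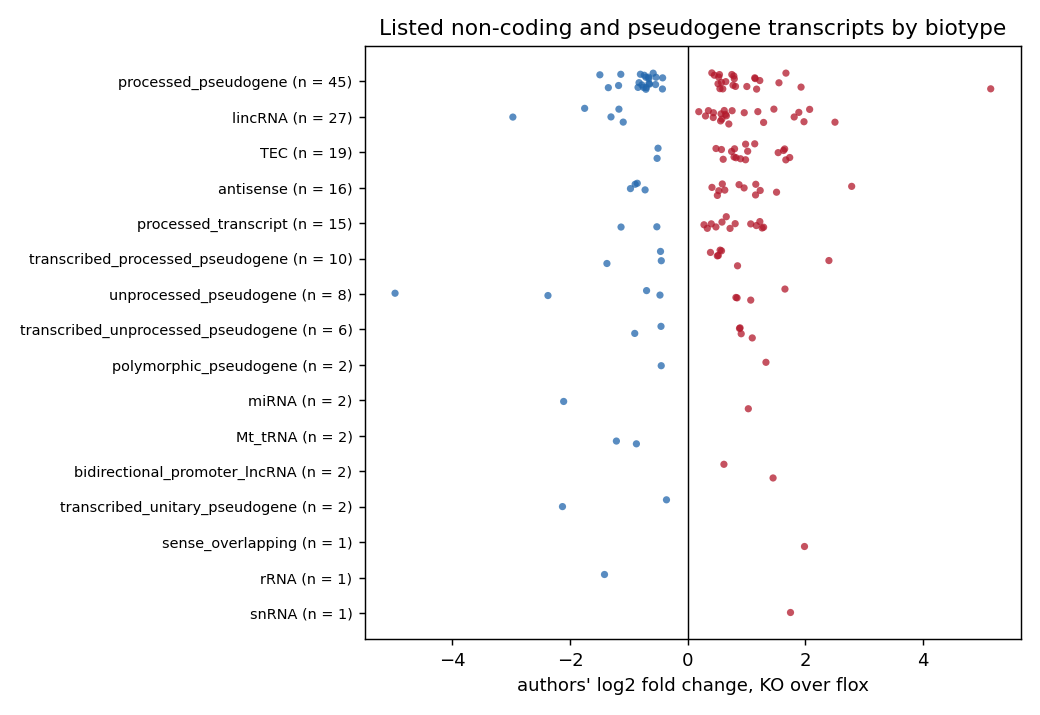
Each point is 1 listed transcript, placed by the authors' log2 fold change (KO over flox, x axis) within its gene biotype (y axis); vertical scatter within a row only separates points. Long non-coding biotypes lie mostly right of 0, 67 of 80, while processed pseudogenes lie on both sides, 23 higher and 22 lower.

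The transcripts also had fewer reads than coding genes, and for coding genes direction went with read number. The median over the 159 of the mean normalised count was 42.0, against 482 for listed protein-coding genes, a comparison of read numbers and not of abundance per length. Among those with a mean under 50, 68 of the 159's 89 were higher (76.4%), against 350 of 374 protein-coding genes (93.6%). Within these 89, 48 of 58 long non-coding RNAs (82.8%) and 18 of 27 pseudogenes (66.7%) were higher. Between 50 and 200, 14 of 15 long non-coding RNAs but only 11 of 28 pseudogenes were higher, beside 393 of 455 protein-coding genes. Between 200 and 1000, 3 of 4 long non-coding RNAs and 9 of 15 pseudogenes were higher, beside 218 of 659 protein-coding genes. At 1000 and over, 3 of 8 were higher, beside 53 of 759 protein-coding genes. No difference between the classes was tested.

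**Figure D2:**
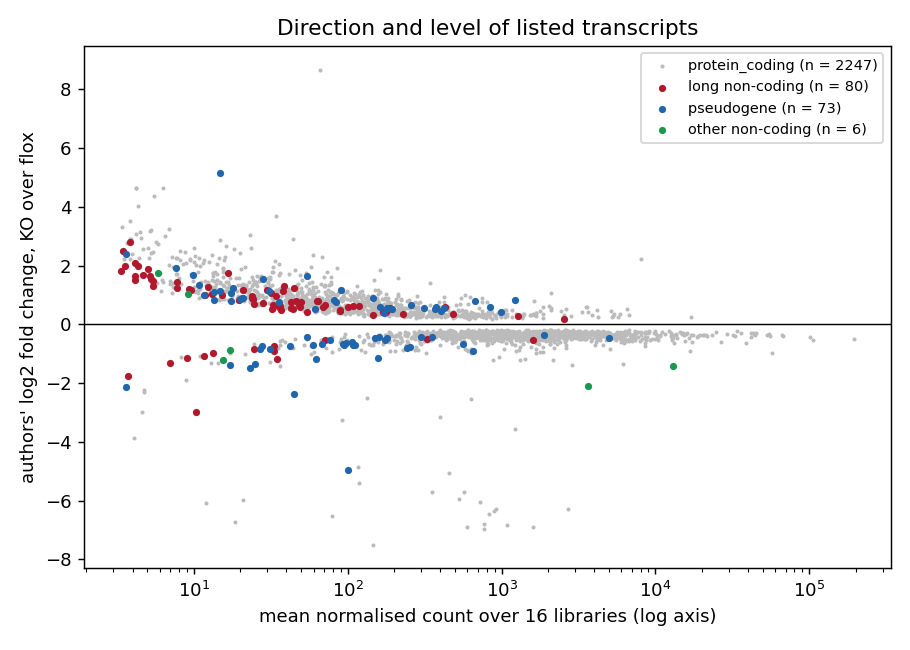
Each point is 1 listed gene, by its mean normalised count over 16 libraries (x axis, log scale) and the authors' log2 fold change (KO over flox, y axis); grey marks protein-coding genes and colours the 3 broad groups. Grey points lie mostly above 0 at low counts and mostly below it at high counts; of the coloured points with a mean between 200 and 1000, 12 of 19 lie above 0, beside 218 of 659 grey points.

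A second test was limma on log2(normalised count + 1) with Benjamini-Hochberg adjustment over the authors' 16488 genes. It could be run for the 132 of the 159 with a mean of at least 10, and the other 27 were not tested. It used the same libraries and only genes that the authors' test had selected, so its calls are not independent evidence either. All 132 had an unadjusted p under 0.05. Limma called 62 of the 132, 37 higher and 25 lower in KO. Of all 2339 listed genes tested, 54.3% were called (19.2% higher and 35.1% lower). The 47.0% called is thus near or below that background. Long non-coding RNAs had 19 called higher and 3 lower of 59, pseudogenes 18 higher and 19 lower of 69, and other RNAs 3 lower of 4. Processed pseudogenes had 30 of 43 called, 16 higher and 14 lower. The direction split depends on scaling: after TMM scaling on the listed genes, 62 were called higher and 9 lower, and after quantile normalisation 13 were called higher and 36 lower. The count fell to 33 without flox 3, to 33 without flox 10, to 39 without KO 1, to 34 without KO 5 and to 27 without KO 7. With the non-epithelial marker sum as a covariate, 1 of the 132 was called and 60 had an unadjusted p under 0.05. All 11 genes in that sum were already listed as higher in KO, so this covariate is tied to the group by how it was built. Leaving out the 5 flox libraries with pancreatic transcripts also left 1 call, with 99 unadjusted; the 1 call was AC154457.3 in both. In what follows, rose and fell are used of transcripts that this limma test called, with its adjusted p.

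Libraries of the groups did not overlap at all for 7 of the 159, where 7.26% of all listed genes did not overlap (1.93% higher and 5.33% lower in KO). AC154457.3, Gm42796, Gm43667 and BC002059 were higher in every KO library than in any flox library, and CT010467.1, Gm4202 and 4930517E14Rik were lower. Leaving out 1 library can only add to this count, which then was 7 to 16, the most without flox 2. The plot of these transcripts by library shows the separation.

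AC154457.3 stood apart from all others in size. It had 0 normalised counts in 5 of 9 flox libraries and at most 3.82 in the others, and 18.8 in KO 1, 31.7 in KO 2, 43.3 in KO 3, 39.4 in KO 4, 40.0 in KO 5, 35.4 in KO 7 and 19.9 in KO 8. All 7 KO libraries thus lay above all 9 flox libraries. It rose by 4.34 ± 0.44 (SE) on the log2(normalised count + 1) scale (limma, adjusted p = 2.03e-05), and the authors' deposited table gives a log2 fold change of 5.16 (adjusted p 7.46e-15). The call held in all 28 alternative fits in which it was tested. Mrps10, the coding gene it matches, went the other way, from 218 ± 21.9 in flox (SD, n = 9) to 165 ± 21.5 in KO (SD, n = 7). AC154457.3 and Mrps10 agree at 98.4% of their aligned bases, so reads that span none of these 9 differences cannot tell the copy from the coding gene.

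**Figure D3:**
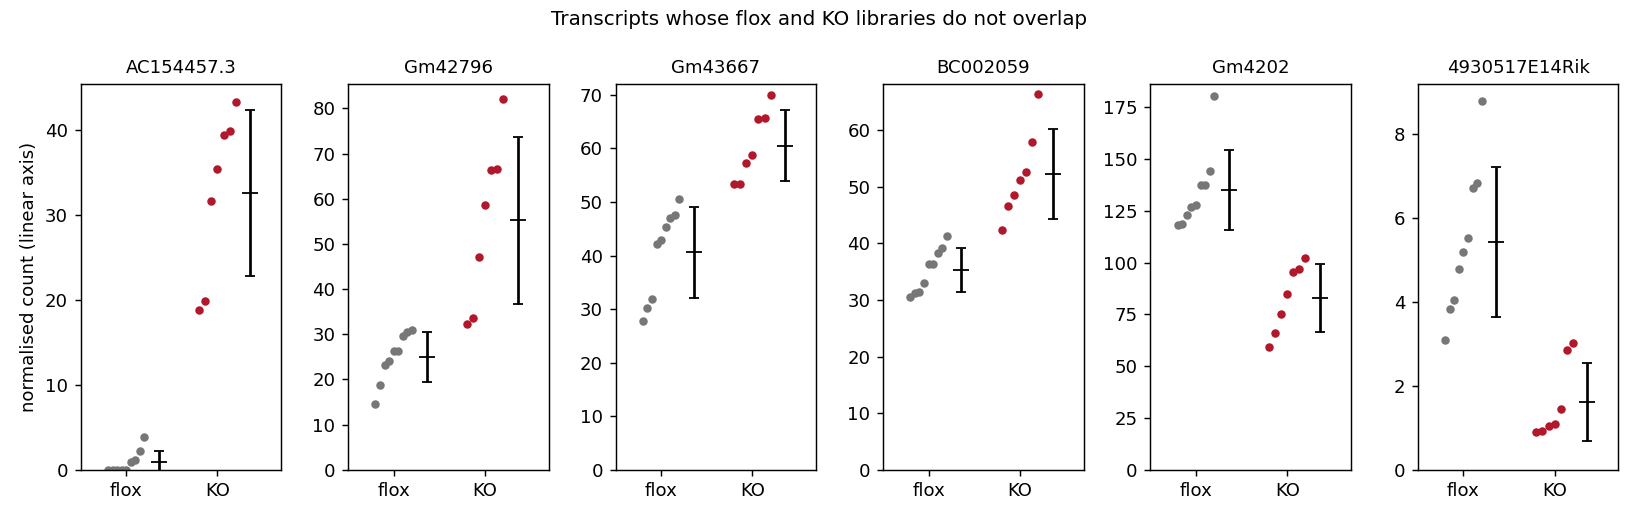
Each panel is 1 transcript; points are the normalised count in each flox (grey, n = 9) and KO (red, n = 7) library on a linear axis from 0, sorted within the group, and the bar beside them is the mean ± SD. No KO library reaches the range of the flox libraries in any of the 6 panels.

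Among the other separated transcripts, Gm42796 (a TEC locus, chromosome 5 at 87355835 to 87356921) had 14.6 to 30.9 normalised counts in flox (median 26.2) and 32.2 to 82.1 in KO (median 58.6). It rose by 1.08 ± 0.23 (limma, adjusted p = 0.0125), called in each of the 16 fits that leave out 1 library. It lies inside Gm7652, a listed pseudogene whose closest coding gene is Ugt2a1; Gm7652 went from 60.7 to 109 without being called. Gm43667, a TEC locus on chromosome 3, had 27.7 to 50.5 in flox and 53.3 to 70.0 in KO and rose by 0.59 ± 0.16 (adjusted p = 0.0366), in 8 of the 16 fits. BC002059, a lincRNA on chromosome 17, had 30.6 to 41.3 in flox and 42.3 to 66.5 in KO and rose by 0.55 ± 0.15 (adjusted p = 0.0337), also in 8 of 16. After quantile normalisation Gm43667 and BC002059 were slightly lower in KO, at -0.12 and -0.16, so their direction depends on the scaling. 4930517E14Rik, a lincRNA too low for the limma test, had 3.09 to 8.80 in flox and 0.886 to 3.02 in KO.

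The ribosomal and short RNA features were lower in KO, apart from Mir8116 and the snRNA. CT010467.1, an 18S ribosomal RNA related locus on chromosome 17 at 39846353 to 39848827, had 9298 to 30996 normalised counts in flox, with a median of 15176. In KO it had 5104 to 7808, with a median of 6858, so every KO library lay below every flox library. Flox 4 and flox 6 were the highest and flox 1 and flox 2 the lowest of the flox libraries. It fell by 1.32 ± 0.22 (limma, adjusted p = 0.00498) in all 16 fits that leave out 1 library. The locus overlaps 2 unlisted lincRNA models, AY036118 on the same strand and Gm42418 on the opposite strand. Where counting does not use strand, which no source used here states, the reads of these models and CT010467.1 cannot be told apart.

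Gm23935, the miRNA model shown above, followed the same library order at the top. It had 10831 in flox 4 and 9880 in flox 6, then 1830 to 6455 in the other flox libraries, and 545 to 2536 in KO. KO 1 and KO 2 were the highest of the KO libraries and overlapped the 2 lowest flox libraries. It fell by 2.12 ± 0.45 (adjusted p = 0.0157), in all 16 fits. It lies in an intron of Zc3h7a on the opposite strand, and Zc3h7a itself was higher in KO (1372 in flox and 1712 in KO). A read lying wholly within its 57 bases matches Gm24245 and Gm24270 equally.

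Both mitochondrial transfer RNAs were lower, from few reads. mt-Ty had 12.1 to 32.0 in flox and 1.77 to 15.7 in KO and fell by 1.22 ± 0.36 (adjusted p = 0.0442), although it was called in only 3 of the 16 fits that leave out 1 library. mt-Tg had 11.4 to 32.0 in flox and 6.57 to 18.1 in KO, a difference of -0.83 ± 0.28 that was not called (adjusted p = 0.0768). None of the 5 mitochondrial RNAs of a list that holds the mitochondrial ribosomal RNAs was listed. Neither was any of the 8 abundant small RNA genes or the 4 nuclear body RNAs checked.

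**Figure D4:**
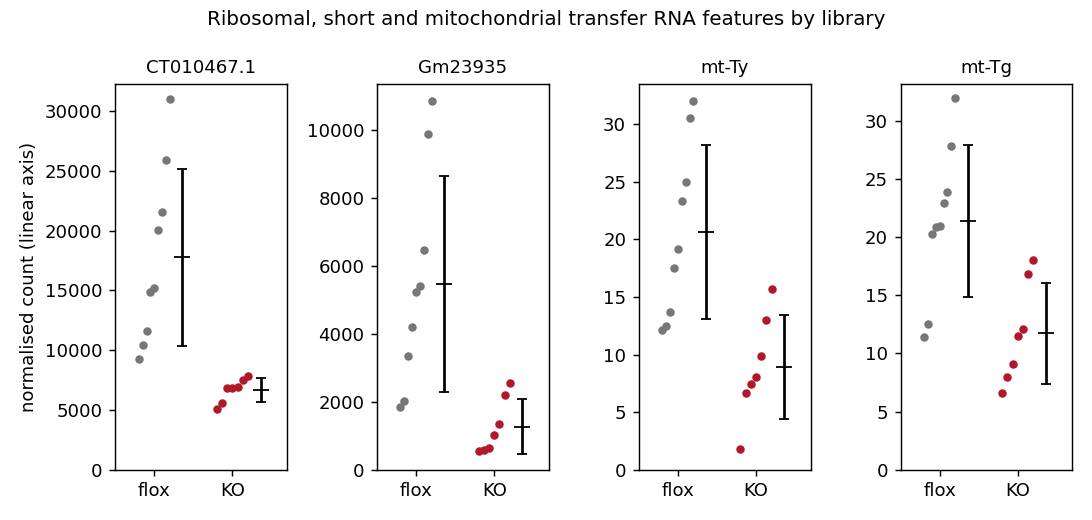
Normalised counts (linear axes from 0) of the rRNA feature CT010467.1, the miRNA model Gm23935 and the mitochondrial transfer RNAs mt-Ty and mt-Tg in each flox (grey, n = 9) and KO (red, n = 7) library, with mean ± SD beside the points. KO libraries lie below all flox libraries for CT010467.1, at 5104 to 7808, and overlap with them in the other 3 panels.

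Mir8116 and Gm24060 were the upward exceptions and were too low for the limma test. Mir8116, on chromosome 5 at 137293780 to 137293876, lies 56.2 kb from Ephb4, the nearest to it of the 14 transcripts on that chromosome. It lies inside Ache, which is on the same strand and not listed, so reads of the micro RNA and of Ache cannot be told apart there. It had 3.31 to 11.5 normalised counts in flox and 6.53 to 18.6 in KO, with all 7 KO libraries above the flox median. Gm24060, a small nuclear RNA model inside Cyth1, had 0.960 to 7.22 in flox and 3.73 to 18.8 in KO. Cyth1, on the same strand, was lower (893 in flox and 709 in KO).

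Of 80 known non-coding RNA genes on 8 lists, 10 were listed, where 14.8% of the 16488 genes were listed in either direction. How many of the 80 were among the 16488 is unknown. All 10 were higher in the authors' deposited table, where 6.97% of all genes tested by the authors were called higher. The lists were 21 small nucleolar RNA hosts (3 listed), 13 micro RNA hosts (1), 4 X inactivation centre RNAs (1), 9 imprinted RNAs (1, also among the hosts), 19 RNAs tied to immunity or growth (5), and the lists without a listed gene above. Limma called 3 of these 10, and Pvt1 was too low for it.

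Ftx, a neighbour and activator of Xist in the X inactivation centre, had 25.1 to 55.1 normalised counts in flox and 54.1 to 79.9 in KO, with 6 of 7 KO libraries above the highest flox library. It rose by 0.77 ± 0.18 (adjusted p = 0.019), in all 16 fits that leave out 1 library. Xist is not listed; the Y-linked genes Uty (247 to 451 normalised counts) and Kdm5d (283 to 466) were expressed in all 16 libraries, as in male mice. Dleu2, the host of miR-15a and miR-16-1, had 64.9 to 105 in flox and 88.6 to 146 in KO. It rose by 0.57 ± 0.14 (adjusted p = 0.0244), and the call was lost without KO 1, without KO 5 or without KO 7. AU020206 had 258 to 482 in flox and 339 to 775 in KO and rose by 0.57 ± 0.16 (adjusted p = 0.0421), in 5 of the 16 fits. Its highest library was KO 1.

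The small nucleolar RNA hosts carry in their introns the guide RNAs that modify ribosomal and other RNAs. Snhg5 had 20.3 to 50.9 in flox and 28.9 to 86.2 in KO, a difference of 0.78 ± 0.24 that just missed the threshold (adjusted p = 0.0504). Snhg18 had 110 to 153 in flox and 145 to 187 in KO, and Snhg14, the long transcript across the Prader-Willi and Angelman imprinted region, had 114 to 185 and 162 to 286. Neither was called (adjusted p = 0.0586 and 0.0624). After quantile normalisation Snhg18 was at -0.03.

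Among the RNAs tied to immunity or growth was 1700020I14Rik, also called Cyrano, the RNA that directs miR-7 decay. Of the listed lincRNAs it had the highest mean normalised count. It had 2076 to 2594 normalised counts in flox and 2482 to 3069 in KO, a small difference of 0.19 ± 0.06 that was not called (adjusted p = 0.0679). Firre, an X-linked RNA that shapes nuclear architecture, had 282 to 500 and 453 to 661 (adjusted p = 0.0757). Dancr had 6.62 to 37.3 and 25.1 to 43.3 (adjusted p = 0.0891). Pvt1, the neighbour of Myc, had 0.956 to 7.09 and 3.81 to 12.0. All of these overlapped between the groups.

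Other long non-coding RNAs with large changes included ones that overlap the immune genes Fcamr and Ms4a6c. AI662270 (chromosome 11) had 9.56 to 34.3 in flox and 22.2 to 90.5 in KO and rose by 1.09 ± 0.31 (adjusted p = 0.0373), in 6 of 16 fits. Gm15344 had 3.82 to 11.1 and 10.6 to 36.9 and rose by 1.11 ± 0.33 (adjusted p = 0.0463), but in only 1 of 16 fits. It shares exon positions with Hsp90b1, which is on the same strand and not listed, so their reads cannot be told apart there. A530030E21Rik, BE692007 and Gm15848 had differences of 1.65 ± 0.59, 1.05 ± 0.43 and 1.57 ± 0.49 and were not called (adjusted p = 0.0899, 0.187 and 0.0547). Gm15848 overlaps the span of Fcamr, an Fc receptor gene, on the opposite strand, and Fcamr was higher as well, from 28.3 ± 13.9 (SD, n = 9) to 72.2 ± 22.8 (SD, n = 7). BE692007 shares exon positions with Ms4a6c, on the opposite strand, which went from 15.7 to 31.9. BE692007 was low in KO 2 and KO 3 (14.9 and 11.1) and 58.0 to 99.2 in the other KO libraries. With the non-epithelial marker sum as a covariate, the estimates for A530030E21Rik and BE692007 turned negative, at -0.35 and -0.29. What the other cell types contribute to these values was not tested. That fit cannot show it, since its covariate holds only genes already listed as higher in KO.

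Among the long non-coding RNAs that were lower, Gm12319 was the clearest. It had 23.9 to 59.5 normalised counts in flox and 4.76 to 32.4 in KO and fell by 1.25 ± 0.30 (adjusted p = 0.0205), in all 16 fits that leave out 1 library. It lies 97 bases from Pfn1, the actin-binding profilin gene, on the same strand, and Pfn1 was lower too (14357 ± 1367 in flox, SD, n = 9, and 11079 ± 1329 in KO, SD, n = 7). Slc6a19os, antisense to the neutral amino acid transporter locus Slc6a19, had 13.7 to 20.9 in flox. It had 2.19 to 10.3 in 6 KO libraries and 22 in KO 8, and fell by 1.13 ± 0.34 (adjusted p = 0.0498), in 2 of 16 fits. Gm14097 and 1810006J02Rik were lower without a call (adjusted p = 0.0643 and 0.07). Gm49172, with high counts, had 1223 to 2463 in flox and 714 to 1753 in KO, also without a call (adjusted p = 0.0534).

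1810028F09Rik and Amy2b went with the pancreatic transcripts. 1810028F09Rik lies 881 bases from Rnase1, the pancreatic ribonuclease gene, on the same strand. It had 74.8 in flox 10, 29.6 in flox 6 and 15.9 in flox 4, at most 11.5 in the other flox libraries, and 0 to 5.71 in KO. Rnase1 was highest in the same 3 flox libraries, at 3395, 989 and 531, and 55.1 to 101 in KO. Amy2b, here an unprocessed pseudogene of the pancreatic amylase cluster, had 1326 in flox 10, 112 in flox 6, 104 in flox 4, 32.5 in flox 7 and 28.8 in flox 9. It was 0 in the other 4 flox libraries and 0 to 4.43 in KO. These 5 are the flox libraries with the highest pancreas marker sum. Neither was called by limma (adjusted p = 0.13 and 0.27). Without those 5 libraries the estimate for Amy2b turned to 0.68, and with the pancreas marker sum as a covariate to 0.17, so its direction rests on them.

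Some transcripts with high counts had small differences. Cct6a, listed as a processed transcript although the locus is that of a chaperonin subunit, had 1022 to 1364 in flox and 1257 to 1707 in KO and rose by 0.28 ± 0.08 (adjusted p = 0.0339), in 10 of 16 fits. Abhd11os had 1384 to 2699 in flox and 1464 to 1944 in KO and was not called (adjusted p = 0.093). Gt(ROSA)26Sor, the ubiquitous Rosa26 transcript, had 122 to 176 in flox and 167 to 228 in KO.

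Pseudogenes were read beside the coding gene they resemble most. A coding counterpart aligned to at least 50% of the transcript was found for 69 of the 73, with a median identity of 99.07% and 35 at 99% or more. Zfp422-ps matched Zfp955b, whose exons it overlaps on the opposite strand, so that match is not a separate copy. Of these counterparts 29 were listed (42.0%), where 14.8% of the 16488 genes were. That is not a like background, since the counterparts were picked by similarity to pseudogenes already called and can share reads with them. Some coding genes, such as Gapdh, were the counterpart of different pseudogenes, so the 69 are not all separate genes. In 25 of the 29 pairs the direction was the same, 11 both higher and 14 both lower. Where a copy and its coding gene are identical, the deposited counts cannot separate their reads. The pairs are plotted against each other in the figure of pseudogenes and counterparts.

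**Figure D5:**
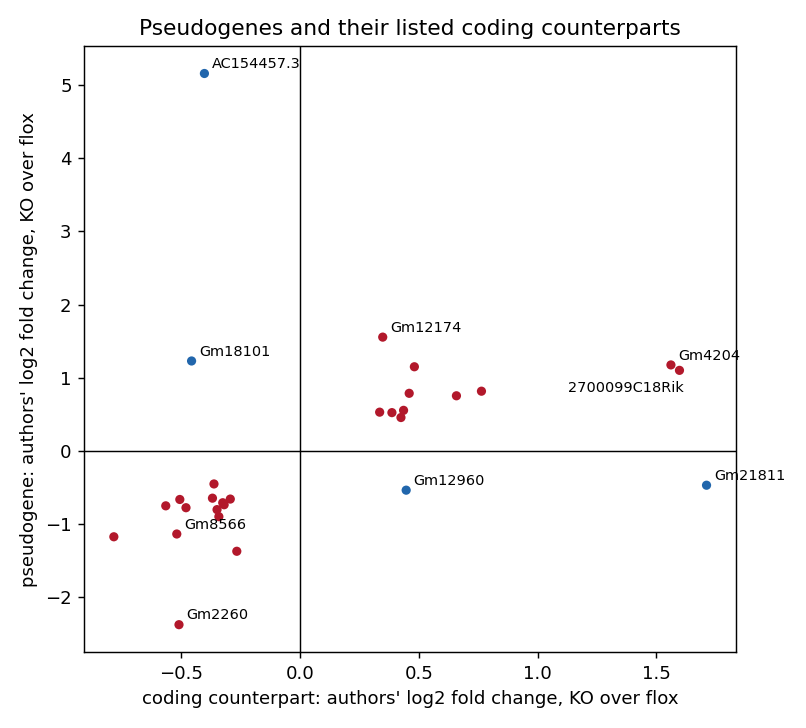
Each point is 1 of the 29 pseudogenes whose closest coding gene is also listed: x axis, the coding gene's log2 fold change, y axis, the pseudogene's, both from the authors' deposited table (KO over flox). Red points, 25 of 29, have the same sign; the 4 blue points, AC154457.3, Gm12960, Gm18101 and Gm21811, do not.

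Copies of ribosomal protein genes were mostly higher. Of 18 pseudogenes whose counterpart encodes a ribosomal protein, 16 were higher and 2 lower, and of 17 listed coding ribosomal protein genes 16 were higher, with a median log2 fold change of 0.48. Rpl17-ps3, the copy with the highest mean count, had 648 to 1228 normalised counts in flox and 934 to 2556 in KO. It rose by 0.80 ± 0.18 (adjusted p = 0.016). Rpl17 itself went from 615 ± 134 (SD, n = 9) to 1044 ± 383 (SD, n = 7). Gm12174, a copy of Rpl7, had 7.97 to 23.9 and 19.5 to 73.3 and rose by 1.45 ± 0.30 (adjusted p = 0.0112). Both were called in all 16 fits that leave out 1 library. Rps10-ps2 had 609 to 1195 and 878 to 1478 and was not called (adjusted p = 0.0648). The 2 exceptions were Gm17828, a copy of Rpl7a, and Rps18-ps3. Gm17828 had 12.5 to 55.7 in flox and 0.952 to 17.4 in KO and fell by 1.57 ± 0.47 (adjusted p = 0.0482), in 4 of 16 fits, and Rps18-ps3 was not called (adjusted p = 0.274).

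Pseudogenes with other counterparts also rose. Gm9118, a copy of the nucleolar protein gene Npm1, had 14.3 to 43.7 in flox and 29.0 to 57.6 in KO and rose by 1.15 ± 0.25 (adjusted p = 0.0136). Npm1 itself went from 902 to 1259. Gm4204, a copy of the histone chaperone gene Nap1l1, had 34.2 to 137 in flox and 70.0 to 232 in KO. Nap1l1 went from 114 ± 69.0 (SD, n = 9) to 337 ± 207 (SD, n = 7). Gm4739 and its counterpart Hmgb2 were both listed higher, as were 2700099C18Rik and Ndc80, a kinetochore gene, although limma called neither pseudogene. Gm10250, a copy of the ATP synthase gene Atp5h, which is not listed, had 594 to 864 in flox and 939 to 1292 in 6 KO libraries, with 572 in KO 1. It rose by 0.55 ± 0.14 (adjusted p = 0.0238), and the call was lost without KO 5 or without KO 7. The proliferation marker sum was higher in KO, and its part in these values was not tested.

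Among the copies that fell, 5 are named here whose counterpart was listed lower too. Gm8566, a copy of the superoxide dismutase gene Sod1, had 151 to 253 normalised counts in flox and 60.3 to 172 in KO, with 6 of 7 KO libraries below the lowest flox library. It fell by 1.19 ± 0.19 (adjusted p = 0.00318), and Sod1 went from 6926 ± 915 (SD, n = 9) to 4832 ± 826 (SD, n = 7). Scp2-ps2, a duplicate of the sterol carrier gene Scp2, had 533 to 1118 and 308 to 626 and fell by 0.90 ± 0.17 (adjusted p = 0.00832). Scp2 went from 16283 to 12845. Oaz1-ps, a copy of the ornithine decarboxylase antizyme gene, had 82.1 to 147 and 60.7 to 84.8 and fell by 0.64 ± 0.14 (adjusted p = 0.014). Gm5637, a copy of the actin-nucleation gene Arpc1b, had 88.8 to 144 and 51.4 to 101 and fell by 0.71 ± 0.15 (adjusted p = 0.0112). Each of these calls held in all 16 fits that leave out 1 library. Gm8615, a copy of Gnpda1, had 9.11 to 41.8 and 4.34 to 12.6 and fell by 1.18 ± 0.34 (adjusted p = 0.0391), in 6 of 16 fits. Gm4202, a copy of the 14-3-3 zeta gene Ywhaz, which is not listed, had 118 to 180 in flox and 59.4 to 102 in KO. It did not overlap between the groups and fell by 0.71 ± 0.13 (adjusted p = 0.00832), in all 16 fits.

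Some pseudogenes resemble genes of immune families. Btnl5-ps, a butyrophilin-like relative at 88.9% identity to Btnl4, had the highest mean normalised count of the listed pseudogenes. It had 4568 to 7078 normalised counts in flox and 3263 to 5046 in KO and fell by 0.45 ± 0.10 (adjusted p = 0.0162), in all 16 fits. The butyrophilin-like genes Btnl1, Btnl4 and Btnl6, which in gut epithelium support intraepithelial gamma-delta T cells, were lower as well, Btnl6 from 6954 ± 1030 (SD, n = 9) to 4633 ± 739 (SD, n = 7). Gm1966, a relative of the interferon-inducible GTPase gene Gvin1, had 9.90 to 26.9 in 8 flox libraries and 115 in flox 2. In KO it had 19.6 in KO 2, 14.1 in KO 3 and 71.8 to 170 in the others. It was not called (adjusted p = 0.0665), but was without flox 2, without KO 2 or without KO 3. With the non-epithelial marker sum as a covariate its estimate was -0.18. Gm8995, another Gvin1 relative, went from 106 to 196, and Art2a-ps from 6.49 to 16.3, both without a call.

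In 4 pairs the pseudogene and its counterpart were listed in opposite directions. Besides AC154457.3, Gm18101 had 5.15 to 18.2 in flox and 12.3 to 42.8 in KO and rose by 1.16 ± 0.31 (adjusted p = 0.0301), a call lost without flox 3, without KO 5 or without KO 7. Its counterpart Rnf5, at 92.3% identity, went from 870 to 634. Gm12960, a copy of the splicing factor gene Hnrnpa3, went from 201 to 139 while Hnrnpa3 went from 506 to 690. Gm21811 went from 172 to 125 while the cadherin gene Cdh11, at 95.7% identity, went from 7.14 to 23.4. Gm2260 matched Anxa11 at 100% of its 657 bases, and both were lower, but by library the 2 differed. Gm2260 had 205 in flox 4, 154 in flox 6 and 16.3 to 36.4 in the other flox libraries, with 97.1 in KO 5 and 4.38 to 15.2 in the other KO libraries. Anxa11 had 746 to 1057 in flox and 500 to 701 in KO. Gm2260 was not called (adjusted p = 0.0949), but was without KO 5.

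By position, of the 159 transcripts 67 overlapped a coding gene (42.1%, against 23.7% of listed protein-coding genes overlapping another), 30 of them exon on exon. A listed coding gene was overlapped by 13 (8.18%, against 3.65% of listed protein-coding genes), and 7 of the 13 shared its direction, against 67 of 82 protein-coding genes. A listed coding gene overlapped or lay within 5 kb of 17, the 13 included (10.7%, against 14.1% of listed protein-coding genes, counted likewise). For 10 of the 17 all such genes shared its direction, against 268 of 316 protein-coding genes. Among overlaps, Gm43980, a TEC locus across from the splicing regulator gene Tra2a, had 24.3 to 70.7 in flox and 54.3 to 128 in KO, and Tra2a was higher too (834 in flox and 1081 in KO). By chromosome, 17 of the 159 were on chromosome 7 (10.7%, against 8.1% of listed protein-coding genes) and 14 on chromosome 5 (8.81% against 5.83%). Chromosome 17 held 13 (8.18% against 6.41%) and chromosome 19 held 1 (0.629% against 4.05%). For chromosome 17 the protein-coding share was counted over the whole chromosome, including the interval left out of the 159. None of these differences was tested. Apart from Mir8116, the nearest on chromosome 5 was Abhd11os, 2337 kb from Ephb4.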

How the data were processed

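RNA of 16 duodenal epithelium libraries (9 flox, 7 KO) was sequenced after poly-T selection with a NEBNext Ultra kit, per the labels' protocols. The submitters' processing notes name the aligner HISAT2 (2.0.5), the counter featureCounts (1.5.0-p3) and the test DESeq2 (1.20.0), with GRCm38 (mm10). The deposited table lists 2438 genes with the authors' normalised counts (a signal: reads over a size factor), log2 fold changes, p-values and adjusted p-values, none above 0.0497. The authors' adjusted p-values correspond to 16488 genes; other genes were not analysed here.

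Whole reads were recovered by dividing out the size factor (100% of values whole within 0.0001 reads). The main test, limma 3.58.1 (trend, robust; R 4.3.3), used log2(normalised count + 1) and those listed genes that average 10 or more. Adjustment ran over 16488 genes, the unlisted ones entered as not called, with a threshold of 0.05. The tools edgeR 4.0.16 and DESeq2 1.42.0 on recovered reads were alternatives, with other pseudocounts, filters, scalings, covariates, a replicate block and each library left out. The limma step was tested on simulated data of 2339 genes for this comparison and recovered 48.1% of 1.5-fold, 75.0% of 2-fold and 92.7% of 4-fold changes. None of the 57 pairs of libraries within a group agreed within sampling noise. P-values set the group difference against the spread between libraries within groups.

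Coding counterparts were the best BLAST match in GENCODE M21 transcripts covering at least 50% of the pseudogene; 154 of the 159 have the table's coordinates in that annotation. Named genes were Ephb4 and sets within long non-coding RNAs and pseudogenes. These sets were the 5 largest listed changes each way, the 5 highest mean counts and those not overlapping between groups. Also named were up to 5 of each other biotype, listed members of 8 fixed lists, and up to 10 with a listed counterpart or overlapped gene. Further names were chosen after their values were seen. The transcripts and lists were chosen with earlier results of these data known. Marker lists had 4 of 15 T cell, 1 of 12 B cell, 2 of 7 mast cell, 3 of 12 stroma, 1 of 8 endothelium and 7 of 10 proliferation genes listed, all higher in KO, and 14 of 15 pancreas, 3 of 7 epithelium and 5 of 8 enterocyte genes, all lower.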

Additional observations from a re-analysis of the deposited data

Results flagged for a closer look

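Of 108 groups of libraries (named transcripts and Ephb4, flox and KO apart), 8 had 1 library set apart from the rest of its group by Dixon's criterion on the log2 scale (7.41%), and chance gives about 1 in 20. Gm10250 had 572 normalised counts in KO 1, its lowest KO library, the next being 939. Gm12319 had 4.76 in KO 5, against 17.5 or more in the other KO libraries. Gm14097 had 6.53 in KO 2, against 20.1 or more. Gm1966 had 115 in flox 2, against at most 26.9 in the other flox libraries. Gm2260 had 97.1 in KO 5, against at most 15.2. Gm4202 had 180 in flox 3, against at most 144, and Gm9118 had 43.7 in flox 2, against at most 24.3. Ephb4 had 84.7 in KO 1, against at most 37.3 in the other KO libraries, and 102.7 or more in flox.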

How the results depend on the processing

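Which transcripts limma called depended strongly on the setting. Of the 132 tested, 62 were called, 37 higher and 25 lower. With a mean of at least 50 the counts were 39, 22 higher. TMM scaling called 62 higher and 9 lower, and quantile normalisation 13 higher. These scalings moved the median of all genes tested by 0.143 and 0.257 (log2), and the non-epithelial covariate moved it by 0.123. With the non-epithelial marker sum as a covariate 1 was called (1 higher, 0 lower), with the pancreas marker sum 15 (7 higher, 8 lower). DESeq2 on recovered reads called 109 (64 higher, 45 lower), 61 of the 62 among them, and edgeR 65, of which 54 were shared. Chosen after seeing the data, edgeR without KO 1 and KO 3 called 29 (19 higher, 10 lower), and limma with the 5 pancreas-rich flox libraries omitted called 1 (1 higher, 0 lower). Leaving out 1 library gave 27 to 74 calls, 14 to 41 higher and 13 to 33 lower, and 7 to 16 transcripts whose groups did not overlap. The cause of these changes was not tested; fits with fewer libraries or more terms have fewer residual degrees of freedom.

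Replicate numbers did not pair the libraries: same-numbered deviations correlated at -0.431 to 0.371 over 6 numbers, and 1 of the 6 matched its own number best. With the replicate block, on numbers in both groups, 1 was called (1 higher, 0 lower; 88 at an unadjusted p under 0.05), and Ephb4 was at -2.3 with an adjusted p of 0.0661 (limma).

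The median difference of the 132, 0.545, was 0.368 with a mean of at least 50, 0.687 with TMM, -0.0192 after quantile normalisation and 0.362 with the non-epithelial covariate. For the 69 pseudogenes tested the median was 0.431, and 0.574 with TMM. It was -0.41 with a mean of at least 50, -0.126 after quantile normalisation and -0.0896 with the non-epithelial covariate. Class medians changed sign for processed pseudogenes without a filter (-0.418 to 0.431). After quantile normalisation they did for lincRNAs (-0.0143), antisense RNAs (-0.0954), transcribed processed pseudogenes (-0.126) and unprocessed pseudogenes (-0.516). With a mean of at least 50 they did for unprocessed (-0.499) and transcribed unprocessed pseudogenes (-0.453). Unprocessed pseudogenes also did with the non-epithelial covariate (-0.294) and the replicate block (-0.03). Single transcripts changed sign with the non-epithelial covariate (A530030E21Rik -0.348, BE692007 -0.286, Gm1966 -0.179), with the pancreas covariate (Amy2b 0.17) and without the 5 flox libraries (Amy2b 0.681). After quantile normalisation BC002059 (-0.158), Gm43667 (-0.117) and Snhg18 (-0.0314) did. Depth limits the 27 transcripts with means under 10, where 1 read is worth 0.724 to 1.14 normalised counts.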
